A study of Homo sapiens with 28 samples.

Results

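The arrays described here follow a mock line of SK-N-AS, an established human neuroblastoma cell line, over time in doxycycline without any inducible MYCN. Late arrays, labelled with times 48, 96 and 192, were set against early arrays, labelled with times 0, 4 and 8. Samples were chosen by their titles alone, which gave 6 of the 28 arrays of the series, 3 in each group with 1 array for each time; the mock array of time 24 was kept out of the groups. Per the labels, the mock cells carry pcDNA6TR, a vector for the tet repressor, and doxycycline was added to the mock cultures as it was to those of the MYCN line; times count from that addition. The other 21 arrays come from SK-N-AS-tet-MYCN cells, in which doxycycline switches MYCN on, with 3 replicates at each of the same 7 times. Both lines grew in DMEM with fetal calf serum. The unit of time is not stated in the labels, nor is it stated whether the mock cells are a clone or whether each array came from a culture of its own.

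The comparison asks how these cells differ after longer against shorter time in doxycycline and in culture when no MYCN can be induced. Early mock arrays of times 4 and 8 were already in doxycycline, and only that of time 0 was not. An effect of the drug that was complete by time 4 would therefore be largely missed. Some genes differed in level between the lines at all times, so the mock line is only a partial background for the induction. The gene VIP, for example, had a signal of 3725 to 4922 in the mock arrays and at most 6.2 in any MYCN array. No mock culture without doxycycline was analysed here at the late times, so the drug and the time in culture cannot be told apart. Arrays of different times stand as the replicates of a phase, so that p-values measure the spread between these arrays, which includes differences of time within a phase. In such bulk RNA, a lower signal can come from fewer cells with a transcript or from less of it per cell, and these cannot be told apart.

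Doxycycline is a tetracycline antibiotic that releases the tet repressor from its operator. It is also known to bind divalent metal ions and to slow the mitochondrial ribosome, and in other human cell lines it has been described to alter amino acid stress genes, glycolysis and respiration. Cells that grow dense turn down YAP and its partner TAZ, coactivators that work with TEAD factors on genes of the cytoskeleton and of growth. Metallothioneins are small cysteine-rich proteins that hold zinc and copper, and their genes are switched on by the zinc sensor MTF1 through short metal response elements in their promoters. SK-N-AS cells have no amplified MYCN and belong to the neuroblastoma lines with many mesenchymal traits, as opposed to the noradrenergic state with its neurosecretory genes.

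The check of the targeted gene came out low in the mock line: MYCN, by the brightest of its 10 probe sets over all arrays, had a signal of 1.6 to 3 in the late arrays and 1.9 to 3 in the early arrays, against 3065 to 4778 in the late arrays of the MYCN line. Early arrays of the MYCN line had 69.4 to 4202, with a median of 1858. The highest mock signal of any of the 10 was 32.7. Its relative MYC, which encodes the paralogous factor, had a signal of 244, 239.8 and 298 in the late mock arrays and of 256, 283 and 266 in the early ones, with overlapping groups. The array of time 192 stood apart from the other mock arrays. Its correlation with them over the genes tested was 0.957 to 0.97, whereas the other 6 correlated with each other at 0.979 to 0.986, and 728 genes lay at least 2-fold from time 0 at time 192, against 262 to 313 at the other times. Its median signal was 20.2, against 16.9 to 18.3 on the other mock arrays, and its ratio of GAPDH 3′ to 5′ probe sets, a measure of RNA integrity, was 1.16, against 1 to 1.06. The same ratio for ACTB was 1.44, 1.41 and 1.55 in the late arrays and 1.33, 1.39 and 1.4 in the early ones, so that all late arrays lay above the early ones by a small amount; the part of RNA integrity in the results was not tested. Counts of genes called, some list medians and some single genes are therefore given with and without time 192.

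No gene passed the test across all genes. Among 11865 genes tested with limma, 0 (0%) had a Benjamini-Hochberg adjusted p under 0.05 between late and early mock arrays, the lowest adjusted p was 0.101, and 1821 (15.3%) had an unadjusted p under 0.05. The differences were small. In 1508 genes (12.7%) all 3 late arrays lay above all 3 early arrays, and in 1244 genes (10.5%) all 3 lay below, yet only 53 and 27 of them differed by at least 2-fold, and 1193 and 1119 by less than 1.5-fold. The array of time 24 defined neither group. It lay above every early array in 71.3% of the genes that were higher late, against 28.9% of all genes. It lay below every early array in 70.4% of those that were lower late, against 25.9% of all genes. These shares are a description only, since genes chosen for low or high early arrays are more likely to have time 24 beyond them. Time 192 was the highest of the late arrays in 71.2% of the higher genes, against 44% of all genes, and the lowest in 71% of the lower genes, against 38.7% of all genes.

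Other readings of the same arrays did make calls. A straight line on the order of the 7 mock times, an alternative that also uses time 24, called 371 genes (3.13%) at an adjusted p under 0.05, of which 191 (1.61%) rose with time and 180 (1.52%) fell. With time 192 left out, 19 genes were called, 4 higher and 15 lower, and in 2062 genes (17.4%) the remaining 2 late arrays lay above the early ones and in 1709 (14.4%) below. Both readings reuse the mock arrays by which most genes named below were chosen, so their calls are no independent support. The trend was not fitted without time 192. Below, "rose" and "fell" are used only for calls of the trend over 7 arrays or of the difference between the lines, whose tool is limma and whose adjusted p is given. Signals are the deposited intensities in arbitrary units, late arrays are given in the order 48, 96 and 192 and early arrays in the order 0, 4 and 8, differences are late minus early in log2 signal, and errors of differences are standard errors. Scaling all arrays to equal medians would move the median difference over all genes by -0.116, to -0.09, so that differences of this size depend on the scaling.

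**Figure D1:**
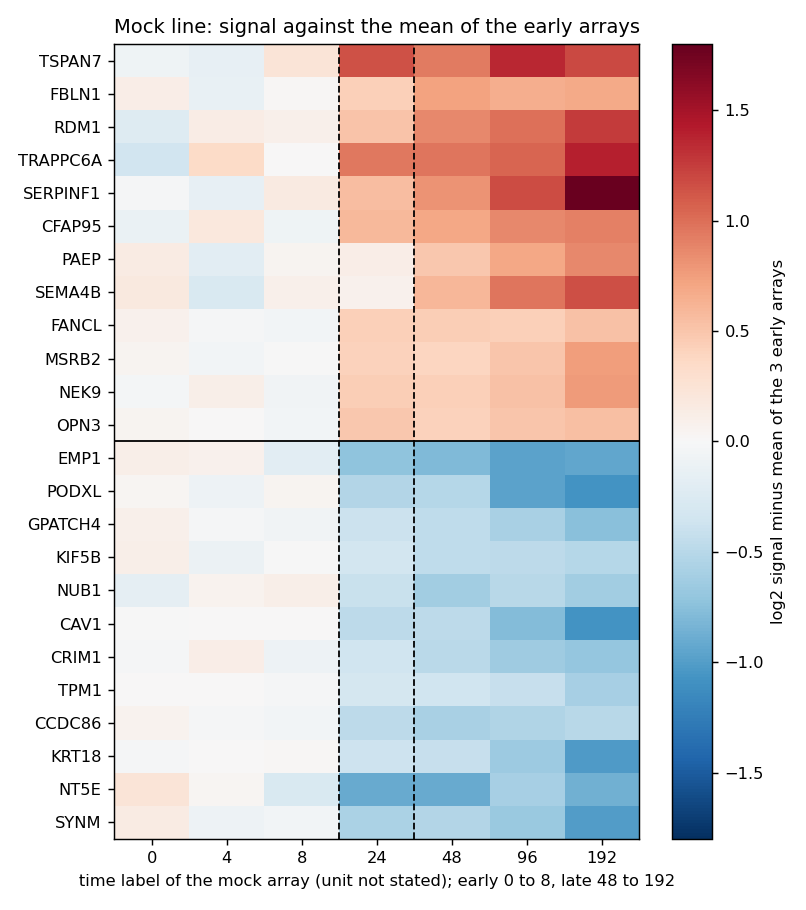
Signal of 24 genes in each of the 7 mock arrays (columns, in order of the time label) as log2 signal minus the mean of the 3 early arrays; rows are the 12 genes higher late and the 12 lower late with the lowest p among those whose groups do not overlap and whose higher group has a mean signal of at least 50. Colours of the time 24 column already resemble those of the late columns for most rows, and SERPINF1, CAV1 and KRT18 are most extreme at time 192.

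Of the 12 lower genes with the lowest p, 6 that encode proteins of the cell surface or the cytoskeleton are described first. EMP1, a membrane protein of the epithelial membrane protein family, had a signal of 279, 248 and 251 in the late arrays, against 517, 510.0 and 424 in the early arrays. The late values lay close together and below every early value, with 291 at time 24, and the difference was -0.90 ± 0.11 (limma adjusted p = 0.101). PODXL, the sialomucin podocalyxin, had 537, 392 and 363 in the late arrays, against 784, 721 and 795 in the early arrays, a difference of -0.85 ± 0.14 (adjusted p = 0.196). CAV1, the coat protein of caveolae, had 377, 305 and 249 in the late arrays, against 519.6, 525 and 525 in the early arrays. Its early values were nearly identical, the late ones stepped away from them, and the difference was -0.78 ± 0.14. KRT18, an intermediate filament keratin, had 2807, 2394 and 1846 in the late arrays, against 3681, 3761 and 3807 in the early arrays, a difference of -0.70 ± 0.13. TPM1, a tropomyosin that lines actin filaments, had 2356, 2261 and 1988 in the late arrays, against 3025, 3033 and 2984 in the early arrays, a difference of -0.46 ± 0.08; 4 of its 5 probe sets with signal moved the same way, and its difference was 0.17 without the _s_at and _x_at kinds of probe set, whose probes can match more than 1 transcript. SYNM, the intermediate filament protein synemin, had 195, 177 and 140.1 in the late arrays, against 310.5, 263 and 271 in the early arrays. Groups without overlap were a condition for choosing these 6 genes. All 6 fell in the trend over 7 arrays, which reuses the same arrays, with adjusted p from 0.0126 to 0.0148. EMP1, PODXL, CAV1, KRT18 and TPM1 were also among the 15 genes called lower without time 192, with adjusted p from 0.0162 to 0.0497. As the mean of all its probe sets, EMP1 had a smaller difference of -0.33.

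The remaining 6 of the 12 lower genes had mixed roles, some of them also at the cell surface. KIF5B, the heavy chain of the motor kinesin-1, had 1684, 1666 and 1617 in the late arrays, against 2507, 2165 and 2298 in the early arrays, a difference of -0.49 ± 0.08. CCDC86, a nucleolar protein, had 212, 218 and 224 in the late arrays, against 333, 314 and 307 in the early arrays. GPATCH4, another nucleolar protein, had 720.5, 666 and 589 in the late arrays, against 1055, 979 and 949.5 in the early arrays, but only 2 of its 4 probe sets with signal moved the same way, and the mean of all its probe sets differed by -0.10. The 3 late values lay within a narrow band for KIF5B and CCDC86, and all 3 genes fell in the trend, with adjusted p of 0.0168, 0.0397 and 0.0126. NUB1, a regulator of the ubiquitin-like protein NEDD8, differed by -0.58 ± 0.10 but had a trend adjusted p of 0.0644, and only 2 of its 4 probe sets with signal moved the same way (0.18 without the _s_at and _x_at kinds). CRIM1 and NT5E are described with the YAP targets.

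The genes with the firmest increase were more mixed. TSPAN7, a tetraspanin of neurons and neural tumours, had 206, 276 and 247 in the late arrays, against 102, 97.5 and 127 in the early arrays. Its signal was already 239 at time 24, and the difference was 1.16 ± 0.15 (adjusted p = 0.101). Late and early did not overlap, which the choice of these genes required. SERPINF1, which encodes the secreted neurotrophic and anti-angiogenic protein PEDF, had 133, 171 and 261 in the late arrays, against 75.1, 68.6 and 85.1 in the early arrays, a difference of 1.25 ± 0.22. FBLN1, the matrix glycoprotein fibulin-1, had 200.1, 192 and 196 in the late arrays, against 132, 110.5 and 124 in the early arrays, a difference of 0.69 ± 0.12, or -0.14 as the mean of all its probe sets. TSPAN7 and SERPINF1 were called without time 192 (adjusted p of 0.0246 and 0.0425), and all 3 genes rose in the trend, with adjusted p of 0.0163, 0.0126 and 0.0411. SEMA4B, a membrane-bound semaphorin, had 204, 264 and 304 in the late arrays, against 153, 112 and 145 in the early arrays. PAEP, the secreted lipocalin glycodelin, had 630.0, 726 and 819 in the late arrays, against 498, 392 and 465 in the early arrays. Both had a time 24 value inside the early range, 143 and 489.7, unlike TSPAN7. MSRB2, a mitochondrial methionine sulfoxide reductase, had 902, 979 and 1163 in the late arrays, against 716, 671 and 689 in the early arrays. NEK9, a kinase of mitosis, had 539, 581 and 684 in the late arrays, against 389.9, 431 and 385 in the early arrays. RDM1, a DNA repair protein related to RAD52, TRAPPC6A, a subunit of a vesicle tethering complex, and CFAP95, a cilia and flagella associated protein, differed by 1.04 ± 0.18, 1.14 ± 0.20 and 0.82 ± 0.15. All of these rose in the trend, with adjusted p from 0.0126 to 0.0271. FANCL, a ubiquitin ligase of the Fanconi anaemia pathway, and OPN3, an opsin found outside the eye, differed by 0.47 ± 0.09 and 0.48 ± 0.09 without passing the trend test (adjusted p of 0.0533 and 0.053).

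Many YAP target genes were lower late. Of 20 members tested, 9 (45%) had all late arrays below the early ones and 2 above, beside 10.5% and 12.7% of all genes; 5 fell and 1 rose in the trend, and the median difference was -0.32, beside 0.03 over all genes tested and -0.35 without time 192. NT5E, the ectonucleotidase CD73, had 134, 165 and 138 in the late arrays, against 295, 257 and 207 in the early arrays, a difference of -0.79 ± 0.15. CRIM1, a membrane protein that binds BMP ligands, had 254, 229 and 219 in the late arrays, against 349, 388 and 333 in the early arrays, a difference of -0.61 ± 0.11. MYOF, the membrane repair protein myoferlin, had 746, 622 and 511 in the late arrays, against 997, 953 and 884 in the early arrays, a difference of -0.61 ± 0.13. All 3 were lower at every late time than at any early time and fell in the trend, with adjusted p of 0.0379, 0.0174 and 0.0126.

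The best known YAP targets are singled out here after their values were seen. CCN2, a matricellular growth factor, had 84, 68.8 and 94.7 in the late arrays, against 229, 167 and 116 in the early arrays, a difference of -1.01 ± 0.23. Its level was already lower at times 4 and 8 than at time 0, reached 68.5 at time 24, and missed the trend test (adjusted p = 0.0506). CCN1, its paralogue, had 1005, 978 and 1319 in the late arrays, against 1478, 1307 and 1214 in the early arrays, with overlapping groups. AJUBA, a LIM protein of cell junctions, had 435, 429 and 318 in the late arrays, against 681, 642 and 535 in the early arrays, and fell in the trend (adjusted p = 0.0126). AMOTL2, a junction protein that binds YAP, also fell (-0.81, trend adjusted p = 0.0302), while its paralogue AMOTL1 rose (0.59, trend adjusted p = 0.0344). HBEGF, an EGF-family ligand outside the list, had 195, 161 and 149 in the late arrays, against 459.9, 285 and 257 in the early arrays, and fell as well (trend adjusted p = 0.0168). The genes of the coactivators themselves had overlapping groups, with differences of -0.08 for YAP1 and 0.05 for WWTR1, which encodes TAZ.

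The 250 bases before the start of CCN2 are shown because they hold the short core that TEAD factors bind. The sequence is from RefSeq (GRCh38.p14, minus strand, chr6:131951373-131951622), and capitals mark GGAATG on either strand.
CCN2: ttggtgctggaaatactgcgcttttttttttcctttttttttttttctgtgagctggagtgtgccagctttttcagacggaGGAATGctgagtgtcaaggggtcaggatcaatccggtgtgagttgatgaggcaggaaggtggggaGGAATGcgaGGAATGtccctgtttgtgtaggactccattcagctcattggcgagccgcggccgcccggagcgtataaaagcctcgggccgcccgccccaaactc
It holds 3 copies that do not overlap. Of 35116 promoter windows of the same length, 11.9% hold at least 1 copy and 0.94% at least 2. NT5E, MYOF, AJUBA and AMOTL2 have none in this window, which says only that these letters are not in it.

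Metallothionein genes showed the most negative median of the lists. All 6 metallothioneins tested lay lower at every late time than at any early time. With the metal transporters and iron genes of the same list, 7 of 13 members (53.8%) were below and 0 above, beside 10.5% and 12.7% of all genes. In this list 5 fell in the trend, and the median difference was -0.50, or -0.34 without time 192. MT1X had 529, 480.1 and 195 in the late arrays, against 961, 941 and 864 in the early arrays, a difference of -1.33 ± 0.30. The step was complete at time 24, with 516, and went further at time 192; without time 192 the difference was -0.87 ± 0.08 with an adjusted p of 0.00305, the lowest of the 19 genes called. MT1F had 124, 102 and 52.7 in the late arrays, against 222, 164 and 206 in the early arrays, a difference of -1.16 ± 0.27. MT1E had 97.2, 114 and 75.8 in the late arrays, against 128, 164 and 150.3 in the early arrays, a difference of -0.64 ± 0.17. MT2A, named after its values were seen, had 1073, 1020.1 and 485 in the late arrays, against 1672, 1369 and 1560.2 in the early arrays, a difference of -0.92 ± 0.25. MT1X, MT1F, MT2A, MT1G and MT1H fell in the trend (adjusted p of 0.0136, 0.0265, 0.024, 0.0342 and 0.0265), while MT1E did not pass (trend adjusted p = 0.078).

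Every metallothionein probe set is of the _x_at kind, whose probes also match other members of the family, so which of these genes moved cannot be told apart; the list without such probe sets had a median of 0.18. The zinc exporter SLC30A1, another MTF1 target with a probe set of its own, differed by -0.36 ± 0.21 with overlapping groups, and the zinc importer SLC39A10 by 0.20 ± 0.12. TFRC, the transferrin receptor that brings in iron, was lower in all late arrays, by 0.50 on the log2 scale (-0.50 ± 0.14, trend adjusted p = 0.0691).

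Promoters of MT1X and MT2A are printed because metal response elements lie within them. Both are from RefSeq (GRCh38.p14, plus strand, chr16:56682220-56682469 and chr16:56608334-56608583), run over the 250 bases before the start, and carry in capitals the core TGCACNC or TGCGCNC on either strand.
MT1X: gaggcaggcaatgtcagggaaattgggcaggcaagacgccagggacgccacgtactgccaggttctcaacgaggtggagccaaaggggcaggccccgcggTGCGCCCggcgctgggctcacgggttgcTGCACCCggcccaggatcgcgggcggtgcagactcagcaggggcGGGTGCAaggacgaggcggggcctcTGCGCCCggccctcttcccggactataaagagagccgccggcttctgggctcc
MT2A: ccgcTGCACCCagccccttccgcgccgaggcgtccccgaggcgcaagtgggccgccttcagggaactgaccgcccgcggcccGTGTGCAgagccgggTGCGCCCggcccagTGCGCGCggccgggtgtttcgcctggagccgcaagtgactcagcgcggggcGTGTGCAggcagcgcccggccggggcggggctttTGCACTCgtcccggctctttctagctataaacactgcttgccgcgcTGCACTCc
The MT1X window holds 4 matches and the MT2A window 7, none of them overlapping, and MT1H has 8. Of the 35116 windows of this length, 24.8% hold at least 1 match, 6.48% at least 2 and 0.37% at least 4. SLC30A1 has 1 match, TFRC 3 and SLC39A10 none.

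**Figure D2:**
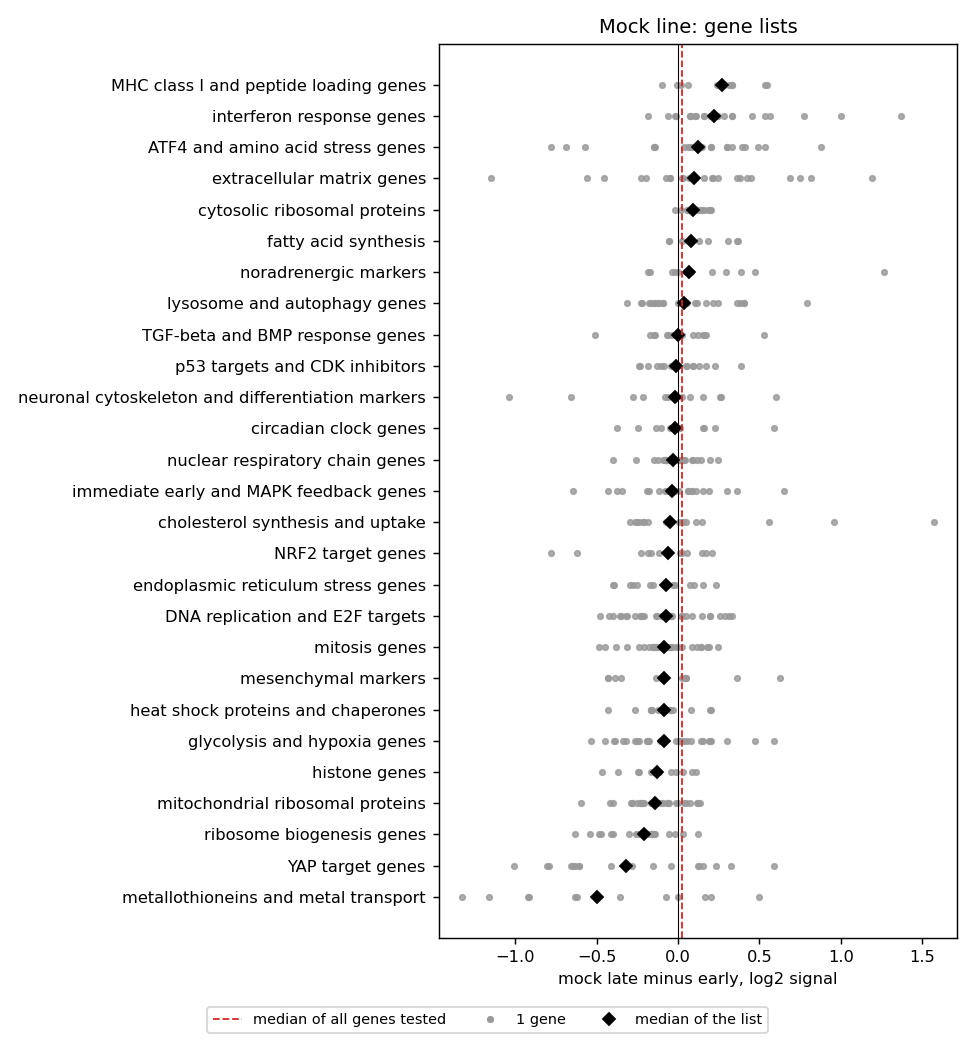
Late minus early difference in log2 signal in the mock line for each tested member (grey points) of 27 gene lists, with the median of each list (diamonds) and the median of all 11865 genes (dashed line). Metallothionein and YAP target medians lie farthest below 0, at -0.50 and -0.32, and the class I antigen presentation and interferon medians farthest above, at 0.27 and 0.22.

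Some growth-related groups were slightly lower, set beside 10.5% of all genes below the early arrays and 12.7% above. Ribosome biogenesis factors, which process ribosomal RNA in the nucleolus, had 11 of 23 members (47.8%) below the early arrays and 1 above, 4 that fell in the trend and a median of -0.21. MRTO4, a factor of the large subunit, had 431, 359 and 334 in the late arrays, against 475, 539.8 and 474 in the early arrays, a difference of -0.41 ± 0.12. RRP12, needed for export of both subunits in yeast, had 204, 160.3 and 119 in the late arrays, against 279, 229 and 226 in the early arrays, but only 2 of its 4 probe sets with signal moved the same way, and the mean of all its probe sets differed by 0.16. MRTO4, RRP12, RRS1 and UTP20 were the 4 that fell (trend adjusted p of 0.0396, 0.0174, 0.0323 and 0.0423). Cytosolic ribosomal proteins did not share this: 3 of 23 lay above and 0 below, with a median of 0.09 (-0.02 with arrays scaled to equal medians) and RPS6 at 0.20 ± 0.09. Mitochondrial ribosomal proteins, the class closest to the known action of tetracyclines, had 17 of 32 members (53.1%) below and 0 above, 2 that fell in the trend, and a median of -0.14, or -0.10 without time 192. MRPS12, a protein of the small mitochondrial subunit, had 561, 512 and 427 in the late arrays, against 656, 657 and 657 in the early arrays, a difference of -0.40 ± 0.11, and fell in the trend (adjusted p = 0.0323). MRPL15 and MRPL37, of the large subunit, differed by -0.42 ± 0.15 and -0.29 ± 0.10 without passing. Nuclear genes of the respiratory chain had 4 of 29 members below and 3 above and a median of -0.03, or 0.02 after quantile normalization. Mitochondrially encoded genes, whose translation tetracyclines slow, have no probe set named for 1 gene and were not analysed here.

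Several enzymes of glycolysis were lower late. Of 29 members, 11 (37.9%) lay below and 2 above, beside 10.5% and 12.7% of all genes. In this list 5 fell in the trend, and the median was -0.09. PKM, pyruvate kinase, had 2762, 2405 and 2140.5 in the late arrays, against 3273, 3089 and 3198 in the early arrays, a difference of -0.40 ± 0.10 (trend adjusted p = 0.0216). ENO1, enolase, had 2395, 2188 and 1868 in the late arrays, against 2716, 2842 and 2839 in the early arrays, a difference of -0.39 ± 0.10 (trend adjusted p = 0.0302); only 2 of its 4 probe sets with signal moved the same way. PFKFB3, which makes the activator of phosphofructokinase, had 774, 726 and 695 in the late arrays, against 964, 953 and 859 in the early arrays (trend adjusted p = 0.0284). The other 2 that fell were HK2, hexokinase, and ANKRD37, a hypoxia-induced gene (-0.53 and -0.45, trend adjusted p of 0.0364 and 0.0269). VEGFA, the hypoxia-induced angiogenic factor, lay higher in all late arrays instead, by 0.59 on average (trend adjusted p = 0.0557), and GAPDH had overlapping groups (trend adjusted p = 0.67).

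Of the proliferation genes, more of the mitosis list than of the DNA replication list were lower late, a contrast that was not itself tested. DNA replication genes had 4 of 33 members (12.1%) below and 3 (9.09%) above, beside 10.5% and 12.7% of all genes, with a median of -0.07. Without time 192 they had 4 below and 10 above with a median of 0.03. Mitosis genes had 9 of 30 (30%) below and 3 above, 2 that fell in the trend and a median of -0.09; without time 192 they had 13 below and 4 above, beside 14.4% and 17.4% of all genes, and a median of -0.06. CDC20, the activator of the anaphase promoting complex, had 550.4, 514 and 459.6 in the late arrays, against 720.4, 700.0 and 707 in the early arrays, a difference of -0.48 ± 0.09, and fell in the trend (adjusted p = 0.0277). FOXM1, a transcription factor of mitotic genes, had 347, 325 and 241 in the late arrays, against 426, 401 and 404 in the early arrays, and was the other that fell (trend adjusted p = 0.0322). PLK1, a mitotic kinase, had 391, 419 and 442 in the late arrays, against 626, 503 and 511 in the early arrays, which did not pass (0.115). Targets of p53 had 1 of 19 members above and 0 below, the death receptor FAS, at 0.39 ± 0.15. SK-N-AS cells are known to lack normal p53.

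Many interferon response genes were higher late. Of 25 members, 11 (44%) had all late arrays above the early ones and 0 below, beside 12.7% and 10.5% of all genes. In the trend 1 rose, and the median was 0.22, or 0.15 without time 192. IFI44L, an interferon-induced protein, had 28.7, 39.2 and 71.8 in the late arrays, against 15.3, 14.3 and 21.5 in the early arrays. Its signals are low and its highest late value is that of time 192, with a difference of 1.37 ± 0.35 that became 1.001 without that array, and it was the gene of the list that rose (trend adjusted p = 0.0168). IFIH1, the cytosolic RNA sensor MDA5, had 84.6, 89.3 and 107 in the late arrays, against 63.9, 64 and 64.9 in the early arrays; the other of its 2 probe sets with signal moved the opposite way. OAS1, which makes the activator of RNase L, had 85.6, 94.7 and 109 in the late arrays, against 74.5, 71.9 and 64.1 in the early arrays. The most commonly used marker, ISG15, did not separate the groups (-0.01). Class I antigen presentation genes had 3 of 12 above and 0 below and a median of 0.27, and of 0.13 without time 192. HLA-B, a class I heavy chain, had 997, 1027 and 1950.5 in the late arrays, against 897, 845 and 842 in the early arrays. HLA-C had 1383, 1407 and 2524 in the late arrays, against 1201, 1138 and 1184 in the early arrays. Most of the difference of 0.55 ± 0.21 for HLA-B and 0.53 ± 0.19 for HLA-C came from time 192: without it they were 0.23 and 0.25. Every probe set of HLA-B and HLA-C is of the _x_at kind, whose probes can match more than 1 transcript. Their signals may thus be shared and are not 2 separate results. Without the _s_at and _x_at kinds the list median was 0.26. B2M, the light chain, differed by 0.06 with overlapping groups.

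Stress genes showed no common direction, and their counts stand beside 12.7% of all genes above the early arrays and 10.5% below. Of 24 ATF4 and amino acid stress genes, 4 lay above and 2 below, with 2 that rose and 2 that fell in the trend and a median of 0.12, which becomes 0.005 when arrays are scaled to equal medians. SLC7A5 and SLC7A11, transporters for large neutral amino acids and for cystine, fell: SLC7A5 had 57.8, 47.3 and 44.1 in the late arrays, against 79.9, 76.8 and 82.1 in the early arrays (trend adjusted p = 0.0453). SLC7A11, also an NRF2 target, had 76.8, 44.6 and 38.7 in the late arrays, against 91.5, 92.5 and 79.7 in the early arrays (trend adjusted p = 0.0479). PCK2, the mitochondrial phosphoenolpyruvate carboxykinase, had 103, 103 and 131 in the late arrays, against 72.5, 76.9 and 81.7 in the early arrays, and rose (trend adjusted p = 0.0369). GDF15, a secreted stress cytokine, rose as well, by 0.88 on the log2 scale (trend adjusted p = 0.0479). The core genes ATF4, DDIT3 and TRIB3 had overlapping groups and differences of 0.07, 0.15 and 0.06, and ASNS one of 0.13. Endoplasmic reticulum stress genes had 4 of 15 below and 0 above; CRELD2, induced by unfolded proteins, had 418, 332 and 318 in the late arrays, against 485, 460.0 and 455 in the early arrays, and was the one that fell (trend adjusted p = 0.0318). Of 14 NRF2 targets 6 (42.9%) lay below and 1 above, and SLC7A11 and GCLM, a subunit of the glutathione synthesis enzyme, fell; GCLM had 475, 418 and 281 in the late arrays, against 523, 611 and 632 in the early arrays (trend adjusted p = 0.0451). Heat shock proteins had 3 of 15 below and 1 above, with HSPA4 lower by 0.43 on the log2 scale (-0.43 ± 0.13), and it fell in the trend (trend adjusted p = 0.0353).

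Counts of the lipid, matrix and lysosome lists stand beside 12.7% of all genes above the early arrays and 10.5% below. Among 19 genes of cholesterol synthesis and uptake, 2 lay above and 2 below (10.5% each), with a median of -0.05. SREBF2, the transcription factor of the pathway, had 109, 100.3 and 205 in the late arrays, against 61.4, 70.7 and 70.3 in the early arrays, and rose in the trend (adjusted p = 0.022). TM7SF2, a sterol reductase, had 271, 256 and 241 in the late arrays, against 146, 184 and 196 in the early arrays (trend adjusted p = 0.0526), whereas HMGCS1, the synthase at the start of the pathway, had 251, 233 and 252 in the late arrays, against 278, 317 and 275 in the early arrays, by 1 of its 2 probe sets with signal. Of 11 genes of fatty acid synthesis, 1 lay above, the carboxylase gene ACACA, at 0.37 ± 0.13 by 1 of its 2 probe sets with signal. Of 25 extracellular matrix genes, 4 lay above and 2 below, with 2 that rose and 2 that fell in the trend and a median of 0.10, or -0.02 with equal medians. FBLN1, given above, and DCN, the proteoglycan decorin (0.42 ± 0.12, trend adjusted p = 0.0343), rose. TNC, tenascin C, had 43.8, 35.8 and 19.2 in the late arrays, against 73.3, 64.4 and 69.3 in the early arrays and fell (trend adjusted p = 0.0216), as did THBS1, thrombospondin 1, with 684, 758 and 569 in the late arrays, against 1004, 922 and 818 in the early arrays (trend adjusted p = 0.024). Of 25 lysosome and autophagy genes, 5 (20%) lay above and 3 (12%) below. CTSB, the protease cathepsin B, had 1857, 2061 and 2696 in the late arrays, against 1623, 1601 and 1715 in the early arrays and was the one that rose (trend adjusted p = 0.0302). CTSK and CTSD, other cathepsins, differed by 0.79 ± 0.21 and 0.38 ± 0.12.

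Markers of cell state moved in single genes. Of 23 noradrenergic markers 12 passed the filter on signal. Among these, 3 (25%) lay above and 2 (16.7%) below, beside 12.7% and 10.5% of all genes. Their median was 0.07, or -0.05 with equal medians. The enzymes that define the noradrenergic state were near background in every mock array, with DBH at 0.8 to 8.7 and TH at 0.6 to 6.6, while the factors PHOX2A and HAND1 had 582 to 1133 and 346 to 633. CHGA, the secretory granule protein chromogranin A, had 139, 155 and 313 in the late arrays, against 102, 67.3 and 70.3 in the early arrays. Its difference was 1.27 ± 0.29, or 0.90 without time 192, and it rose in the trend (adjusted p = 0.0344). SOX11, a transcription factor of developing neurons, had 682, 790.5 and 878 in the late arrays, against 496, 625 and 568 in the early arrays, a difference of 0.48 ± 0.12, and rose as well (trend adjusted p = 0.0253). The 2 that lay below were the factors GATA3 and ISL1. GATA3 had 784, 752 and 781 in the late arrays, against 877, 853 and 879.8 in the early arrays, with 1 of its 3 probe sets with signal moving this way, and ISL1 had 380.5, 378 and 379.8 in the late arrays, against 419.9, 447 and 428 in the early arrays; neither passed the trend test (adjusted p of 0.216 and 0.275). The summed signal of the 21 noradrenergic markers with a probe set was 5681 to 6344 in the late arrays and 5278 to 5547 in the early ones. Mesenchymal markers, 16 of 22 of them tested, had 4 below and 1 above and a median of -0.09. The sum over the 20 with a probe set was 12914 to 13934 in the late arrays and 14111 to 14913 in the early ones. VIM alone had 4559 to 5331 over the mock arrays, so the sum follows a few bright genes and not the whole panel. LMNA, lamin A and C, had 1032, 864 and 953 in the late arrays, against 1391, 1159 and 1295 in the early arrays (trend adjusted p = 0.0488). PRRX1, a mesenchymal homeobox factor, and CD44, the hyaluronan receptor, differed by -0.39 ± 0.13 and -0.35 ± 0.13, and both fell in the trend (0.0318 and 0.0432). VIM, vimentin, had 4559, 4718 and 4799 in the late arrays, against 5253, 5331 and 4916 in the early arrays; it was also lower at every late time, by a small amount (-0.14 ± 0.07), and did not pass the trend test (adjusted p = 0.248). Of 12 Schwann cell markers only MBP passed the filter, at 10.6 to 31.6. NGFR, the low-affinity neurotrophin receptor, had a signal of 24.7 to 47.2 in the mock arrays, and ERBB3, a neuregulin receptor, reached 18.7, though neither passed over all 28 arrays. S100B and SOX10 reached at most 1.5 and 12.3. The summed signal of the 8 Schwann cell markers with a probe set was 60.4 to 115.8 in the late arrays and 78.7 to 100.3 in the early ones.

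Among 13 neuronal cytoskeleton and differentiation markers, 2 lay above and 2 below (15.4% each), beside 12.7% and 10.5% of all genes. RET, the receptor for GDNF family ligands, had 2452, 2809 and 3729.7 in the late arrays, against 1991, 1959.8 and 1895 in the early arrays, a difference of 0.60 ± 0.13, and rose in the trend (adjusted p = 0.0197). NEFM, the medium neurofilament chain, had 99.2, 89.4 and 75 in the late arrays, against 159, 134 and 122 in the early arrays and fell (trend adjusted p = 0.0148), and NEFL, the light chain, differed by -1.04 (trend adjusted p = 0.0759). DPYSL3, a collapsin response mediator, had 1176, 1174 and 1293 in the late arrays, against 1099, 967 and 979 in the early arrays, in 1 of its 3 probe sets with signal. RET and NEFM thus moved in opposite directions. Immediate early and MAPK feedback genes had 3 of 25 below and 1 above, with KLF4 at 73.9, 83.4 and 61.4 in the late arrays, against 149, 93.7 and 104 in the early arrays, and DUSP4, a MAPK phosphatase, as the one that fell (trend adjusted p = 0.0397). TGF-beta and BMP response genes had 1 of 15 below and 2 above, and SMAD7, the inhibitory SMAD, fell (-0.51 ± 0.19, trend adjusted p = 0.049). Of 17 circadian clock genes 0 separated the groups in either direction, and of 12 histone genes 1 lay below, H2AX, at -0.37 ± 0.16.

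Some of the steepest differences were widest at time 192, as in 3 genes chosen after their values were seen. PTPRO, a receptor tyrosine phosphatase, had 476, 817 and 2859.5 in the late arrays, against 249, 350.5 and 411 in the early arrays, a difference of 1.65 ± 0.51 that became 0.92 without time 192. DHRS3, a retinal reductase induced by retinoic acid, had 38.8, 58.6 and 159 in the late arrays, against 24.2, 23.5 and 18.3 in the early arrays, a difference of 1.71 ± 0.43 that became 1.13. S100A2, a calcium-binding protein, had 245, 164 and 52.3 in the late arrays, against 295, 391 and 366 in the early arrays, a difference of -1.44 ± 0.44 that became -0.80. In each of them times 48 and 96 already lay beyond the early arrays, time 192 was farther, and all 3 passed the trend test (adjusted p of 0.0148, 0.0274 and 0.0377).

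The filter on signal used the mean of all 28 arrays, so it removed genes that were bright in the mock line and dim in the MYCN line. There were 58 such genes with a mean mock signal of at least 50, and in all 58 no array of the MYCN line reached 50; the filter itself fixes that they are dim there. Of these 58, 16 lay above and 2 below in the late arrays, beside 12.7% and 10.5% of the genes tested. CHRNA3, a neuronal nicotinic receptor subunit, had 214, 263 and 357 in the late arrays, against 118, 104 and 129.8 in the early arrays, a difference of 1.22 ± 0.18 (adjusted p = 0.186 with the filter set on the mock arrays), and at most 15.3 in the MYCN line. ANO4, a calcium-dependent scramblase, had 111, 89.1 and 66.7 in the late arrays, against 154, 129 and 147.5 in the early arrays. CDH11, a mesenchymal cadherin, had 1322, 1481 and 1592 in the late arrays, against 1398, 1374 and 1302 in the early arrays, with overlapping groups. VIP had 4828, 4130 and 3725 in the late arrays, against 4177, 4806 and 4852 in the early arrays, also with overlap. In the MYCN line CDH11 and VIP reached at most 7.3 and 6.2. These genes were also named after their values were seen.

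The change over the same times in the MYCN line was different for many genes. Early arrays of that line include times 4 and 8 in doxycycline, and MYCN had 69.4 to 4202 over times 0 to 8. Its late-minus-early change is therefore not one of induced against uninduced cells. The difference between the mock change and the MYCN change, fitted on 24 arrays, passed at an adjusted p under 0.05 for 2049 of 11865 genes (17.3%): 1068 (9%) had the higher change in the mock line and 981 (8.27%) in the MYCN line. With all arrays scaled to equal medians 1477 genes passed, and the share with the higher change in the mock line was 34.7%, against 52.1% as deposited. Of the 2049 genes, 1814 (88.5%) had mean changes of opposite sign in the lines, a share that choosing genes by this difference itself favours. In 455 the mock arrays lay higher late without overlap while the MYCN mean was lower, and in 445 the reverse held. The mock arrays overlapped in 1107 of the 2049, and in 391 the mock mean changed by less than 0.1. Only the mock line is represented by 1 series of arrays, and its spiked control bioD, at 2377 to 2770, was close to that of MYCN replicate 3, at 2322 to 2558, whereas MYCN replicates 1 and 2 had 1544 to 1941; ACTB 3′ to 5′ ratios were 1.33 to 1.55 in the mock line and 1.1 to 1.31 in the MYCN line. The part of these array differences was not tested, beyond a fit with MYCN replicate 3 alone, which passed 537 genes. Without time 192 of both lines 1036 genes passed.

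**Figure D3:**
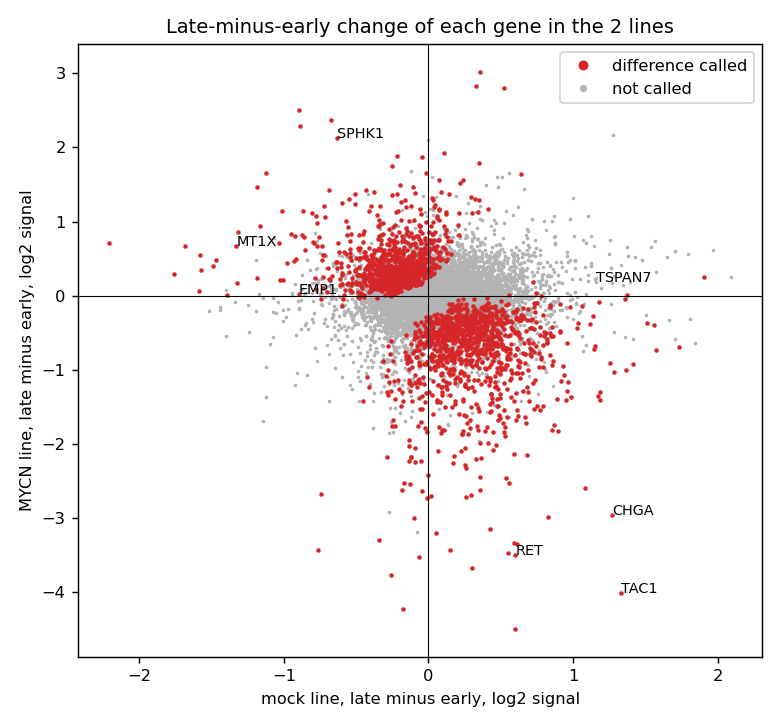
Late minus early difference in log2 signal of each of the 11865 genes in the mock line (x axis) and in the MYCN line (y axis), with the 2049 genes whose difference between lines passed in red. Called genes lie mainly at the upper left and lower right, which choosing by this difference favours, with TAC1, CHGA and RET far down on the right and MT1X and SPHK1 on the upper left.

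The 6 genes with the most positive differences between the lines were TAC1, C7, CHGA, RET, LAMP5 and C1S. TAC1, the precursor of substance P, had 64, 94.5 and 165 in the late mock arrays, against 40.3, 42.6 and 36.4 in the early ones; in the MYCN line it had a median of 83.9 late and 1472 early. The difference between the changes was 5.35 ± 0.91 (adjusted p = 0.000469). RET, given above for the mock line, had a median of 53.8 late and 827 early in the MYCN line, a difference between the changes of 4.10 ± 0.94 (adjusted p = 0.00405). CHGA had medians of 6.9 late and 48.1 early there, a difference of 4.23 ± 1.14 (adjusted p = 0.0116). The late values of these 3 genes lay above the early ones in the mock line, and their late medians below the early medians in the MYCN line. C7, a complement component of the membrane attack complex, had 3164, 3718 and 5244 in the late mock arrays, against 2525, 2604 and 2708 in the early ones, and medians of 5.6 late and 175 early in the MYCN line. C1S, the complement protease, had 310.4, 338 and 452 in the late mock arrays, against 234, 258 and 249 in the early ones, and medians of 5.9 late and 60.3 early in the MYCN line, a difference of 4.02 ± 0.69 (adjusted p = 0.000469). Mock levels of all 5 genes were higher at every late time than at any early time, and 5 of 5 rose in the mock trend, with adjusted p from 0.0148 to 0.0344. LAMP5, a lysosome-associated membrane protein of neurons, differed by 4.05 ± 0.997 with overlapping mock groups. Without time 192 of both lines C7 and CHGA no longer passed (adjusted p of 0.0932 and 0.0629), with differences of 4.38 and 4.07.

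**Figure D4:**
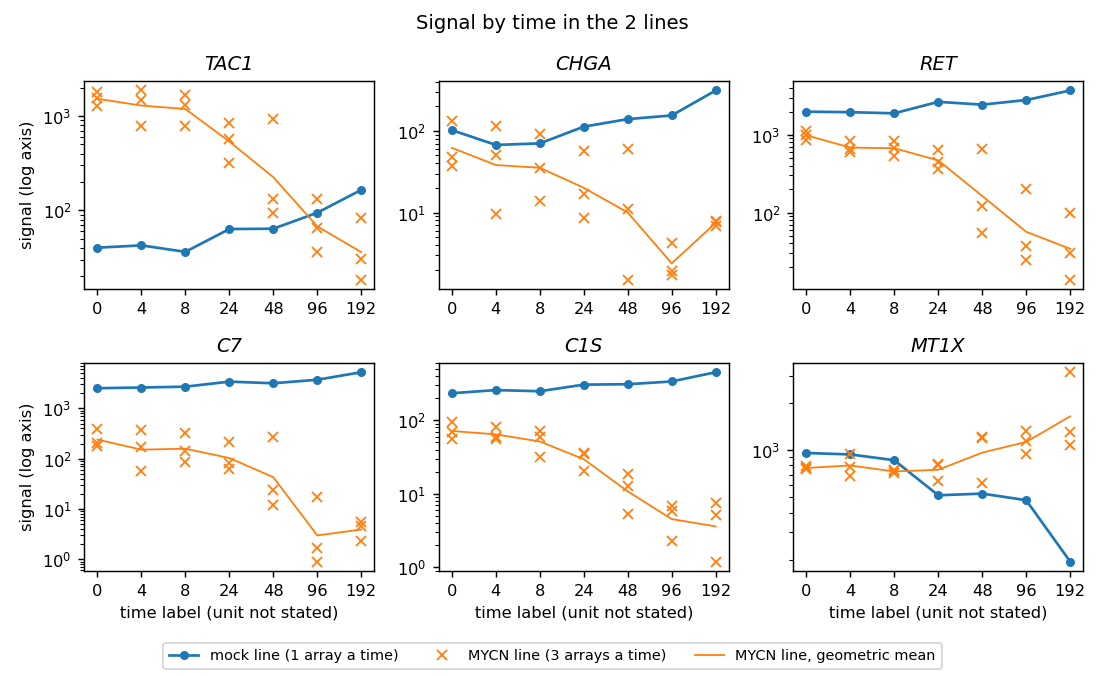
Signal on a log axis by time label for 6 genes in the mock line (blue, 1 array a time) and in the MYCN line (orange crosses, 3 arrays a time, with their geometric mean as a line). In the mock line TAC1, CHGA, RET, C7 and C1S climb and MT1X declines with time, while the means of the MYCN line go the other way in each.

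At the negative end, the genes differed in whether their mock groups overlapped. SPHK1, sphingosine kinase, had 37.9, 39.1 and 30 in the late mock arrays, against 65.4, 46.8 and 54.1 in the early ones, and medians of 224 late and 45.1 early in the MYCN line, a difference of -2.77 ± 0.42 (adjusted p = 0.000189). MT1X had medians of 1194 late and 755 early in the MYCN line, a difference of -1.99 ± 0.39 (adjusted p = 0.00142). HECW2-AS1, an antisense transcript, had 178, 177 and 105 in the late mock arrays, against 191, 289 and 242 in the early ones, a difference of -3.04 ± 0.85 (adjusted p = 0.015). In all 3 the late mock arrays lay below the early ones without overlap. ABCA17P, a transporter pseudogene, CCK, the neuropeptide cholecystokinin, GPAT3, a glycerol-phosphate acyltransferase, and DDN, dendrin, had overlapping mock groups and differences of -2.66, -2.50, -3.40 and -2.65, and the mock signals of GPAT3 were 1.1 to 9.4 throughout. HECW2-AS1, CCK and DDN no longer passed without time 192 of both lines (adjusted p of 0.107, 0.096 and 0.22).

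Group by group, the lists set the lines apart as follows, with 9% of all genes called positive and 8.27% negative. Interferon genes had 14 of 25 called positive and 0 negative; for IFI44L the difference was 2.38 ± 0.52 (adjusted p = 0.00298), and the list medians were 0.22 in the mock line and -0.44 in the MYCN line. Extracellular matrix genes had 9 of 25 positive and 0 negative, with medians of 0.10 in the mock line and -0.39 in the MYCN line. Mitochondrial ribosomal proteins had 17 of 32 negative and 0 positive, with medians of -0.14 in the mock line and 0.22 in the MYCN line. Ribosome biogenesis factors had 11 of 23 negative and 0 positive, and nuclear respiratory chain genes 13 of 29 negative and 1 positive. Mitochondrial ribosomal proteins and ribosome biogenesis factors each had a median below 0 in the mock line and above 0 in the MYCN line. The metallothionein list had 7 of 13 negative and 0 positive, with medians of -0.50 in the mock line and 0.49 in the MYCN line, and YAP targets 5 of 20 negative and 1 positive, with medians of -0.32 in the mock line and 0.25 in the MYCN line. Cholesterol genes had 6 of 19 positive and 0 negative, where the mock median of -0.05 stood against -0.64 in the MYCN line. Among the cell surface genes that were lower late in the mock line, CAV1 and NT5E were higher late in the MYCN line, by 1.07 and 0.71, with differences between the changes of -1.85 ± 0.29 (adjusted p = 0.000239) and -1.50 ± 0.38 (adjusted p = 0.00779), while EMP1 differed by 0.02 there (-0.91 ± 0.18, adjusted p = 0.00118). TSPAN7 could not be compared in this way, since its signal in the MYCN line was 1.6 to 13.7 throughout.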

How the data were processed

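Each of the 28 arrays is a single-colour Affymetrix array. What was deposited is an intensity for every probe set, not on a log scale; MAS5 and GCOS are named in the submitters' processing notes, without versions. In the table the mean after trimming 2% at either end is 100.01 in every mock array, so no further scaling was applied. Of 54675 probe sets, 41091 named 1 gene, 1801 several and 11721 none, and 62 were controls; 41037 matched a current gene. Before log2, 0.1 replaced 91 values that were 0 or negative. Each of 19775 genes was read by its brightest probe set, and a filter at the 40th percentile of the 28-array mean (12.8 as a signal) left 11865 genes to test.

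The limma package (version 3.58.1, with lmFit and a trended eBayes, in R 4.3.3) gave two-sided p-values, adjusted by Benjamini-Hochberg over all genes and called under 0.05, for late minus early on 6 mock arrays (4 residual degrees of freedom) and for its difference from the MYCN line on 24 arrays (20). The procedure was tested on simulated data. An exact permutation test of 3 against 3 arrays cannot go below 0.1 and was not used. In the MYCN line, deviations of same-numbered early and late arrays correlated at 0.408, 0.222 and 0.479, so the replicate numbers pair these arrays, and the replicate block was fitted as an alternative. The number of arrays limits the precision.

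Members, the 29 gene lists and the alternatives were chosen with earlier results of these data known. Named genes were the 12 with the lowest p in each direction whose groups do not overlap and whose higher mean signal is at least 50, the 3 of each list with the lowest p, the 6 with the largest difference between lines in each direction, MYCN, MYC and the cell type markers; others are list members named in passing or are said to be chosen later. Promoters are from RefSeq (GRCh38.p14).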

Additional observations from a re-analysis of the deposited data

Results flagged for a closer look

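The late-minus-early change differed between the mock line and the MYCN line, by the test of the difference itself, in 2049.0 genes. Named genes with the higher change in the mock line were TAC1 (log2 difference 5.35), C7 (5.1), CHGA (4.23), RET (4.1), LAMP5 (4.05) and C1S (4.02). Those with the lower change in the mock line were GPAT3 (-3.4), HECW2-AS1 (-3.04), SPHK1 (-2.77), ABCA17P (-2.66), DDN (-2.65), CCK (-2.5) and MT1X (-1.99).

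For these genes, 26 groups of 9 MYCN arrays were searched for an array far from the others, and 8 were found. The cutoff is one that chance passes in about 1 in 20 groups of like arrays. These groups pool different times and replicates, and the genes were chosen for large differences between the lines. The count of 8 can therefore not be set against chance and is a description only. In 5 genes it was the MYCN array of time 48, replicate 3, with the highest late signal: TAC1 at 928.2 (next highest 133.4), C7 at 272.0 (next highest 23.7), CHGA at 60.6 (next highest 11), RET at 664.9 (next highest 199.8) and LAMP5 at 29.2 (next highest 7.6). These 5 genes still passed the test of the difference without MYCN replicate 3. With MYCN replicate 3 and the mock arrays alone, C7 no longer passed (difference 4.18, limma adjusted p = 0.0756), while TAC1, CHGA, RET and LAMP5 did. SPHK1 had 69.8 in an early MYCN array (time 8, replicate 1). MT1X had 3150.9 in a late MYCN array (time 192, replicate 1) and 951.5 in an early one (time 4, replicate 2).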

How the results depend on the processing

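The count of 0 genes called between late and early mock arrays stayed at 0 under equal array medians, quantile normalization, the filters tried (none, the 60th percentile, and the mock arrays alone, the last added after seeing the data), the mean of all probe sets, probe sets without the _s_at and _x_at kinds, an offset of 16, eBayes without trend and robust eBayes, and time 24 counted as early. It became 8 with 1 fit of both lines, 2 with time 24 counted as late and 371 with the linear trend; leaving out 1 array gave 0 to 19, with 11 without time 48 and 19 without time 192. With the mean of all probe sets the differences of FBLN1 (-0.141) and RRP12 (0.164) changed sign, and without the _s_at and _x_at kinds those of NUB1 (0.18), TPM1 (0.169), RRP12 (0.118) and ENO1 (0.466) did; the cause was not tested. Of the other values of named genes in the mock line under the alternatives, 774 kept direction and call and 58 gained a call. The 2049 calls of the difference between lines became 1302 with the mean of all probe sets, 537 with MYCN replicate 3 and the mock arrays alone, 1036 without time 192 of both lines (added after seeing the data) and 1246 to 2755 when a mock array or a MYCN replicate was left out, with 1246 without the mock array of time 192 and 1305 without MYCN replicate 2; the cause was not tested. With the replicate block 2712 genes were called, and no named gene lost its call. For named genes this difference kept direction in all alternatives and lost the call in 27 of 270 values, mainly of DDN and CCK. Signals near background scatter widely on the log scale, which limits DDN, GPAT3 and LAMP5. The same limit holds for C7, C1S and CHGA, with late medians of 5.6, 5.9 and 6.9 in the MYCN line. It also holds for HECW2-AS1 and CCK, with early signals of 0.4 to 7.3 and 1.4 to 16.8 in that line. With an offset of 16, CCK (-0.905) and DDN (-1.29) lost the call of the difference between lines (limma adjusted p of 0.0663 and 0.0693).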
